A study of Mus musculus with 6 samples.

Results

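Transcripts of 10 genes that build the desmosomes and adherens junctions of the intercalated disc were read on 6 arrays, each from the heart of a mouse 12 months old. The mice were 3 wild-type animals and 3 labelled as Cenpf knock-out. Cenpf is the gene of centromere protein F, known from kinetochores and microtubules. The genes were taken by name: Dsp, Pkp2, Jup, Dsg2, Dsc2, Cdh2, Ctnna1, Ctnna3, Ctnnb1 and Tjp1. Each had 1 probe with a single gene symbol, so the rule of taking the probe of highest mean chose between none, and the 10 genes stand among 19938 genes with such a probe. The hearts of both groups were untreated and are labelled as biological replicates. The strain, the sex, the deleted part of Cenpf and any promoter or Cre line behind the knockout were not stated in the labels used. The question named for the series is how knockout and wild-type hearts differ.

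The intercalated disc joins heart muscle cells end to end. In its desmosomes the cadherins desmoglein-2 and desmocollin-2 hold neighbouring cells together, and plakoglobin and plakophilin-2 couple their tails to desmoplakin, which binds the desmin filaments. In its adherens junctions N-cadherin is coupled through beta-catenin or plakoglobin to the alpha-catenins, which bind actin. In the heart the 2 kinds of junction mix into a composite junction, and inherited defects of its desmosomal parts are known from arrhythmogenic cardiomyopathy.

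None of the 10 genes passed an adjusted p under 0.05 between knockout and wild-type hearts (limma, Benjamini-Hochberg over 21789 probes), where 0.0275% of all probes did. At an unadjusted p under 0.05 the count of members was also 0, against 9.90% of all probes. That count moved with the settings: Dsp was under 0.05 in 7 and Jup in 8 of 15 alternatives. It was highest without knockout replicate 1, at 3 of 10 (Dsp, Jup and Dsg2), against 11.2% of all probes there. The differences, knockout minus wild-type on the log2 scale, ran from -0.19 for Dsc2 to 0.33 for Dsp, with 7 above 0 and 3 below, and 47.9% of all probes lay above 0. Their median was 0.061, and the median over all probes tested was -0.0082. The values of the 2 groups did not overlap for Jup and Ctnnb1, the genes of plakoglobin and beta-catenin, which were higher in all 3 knockout hearts, and such a separation upward was found in 7.33% of all probes. No member was separated downward, against 7.47% of all probes. The count of 2 is too small to set the members apart from that share. For every member the 95% interval of the difference excluded a 2-fold change in either direction, and for 7 of 10 it excluded a 1.5-fold change. The count at 1.5-fold ranged from 6 to 8 over the alternatives. Where it was 6, the intervals of Dsp, Dsg2, Dsc2 and Ctnna3 reached 1.5-fold. The interval of Dsg2 reached past 2-fold with array weights, or when wild-type replicate 1, wild-type replicate 3 or knockout replicate 1 was left out, with upper ends of 1.04, 1.06, 1.14 and 1.07.

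**Figure D1:**
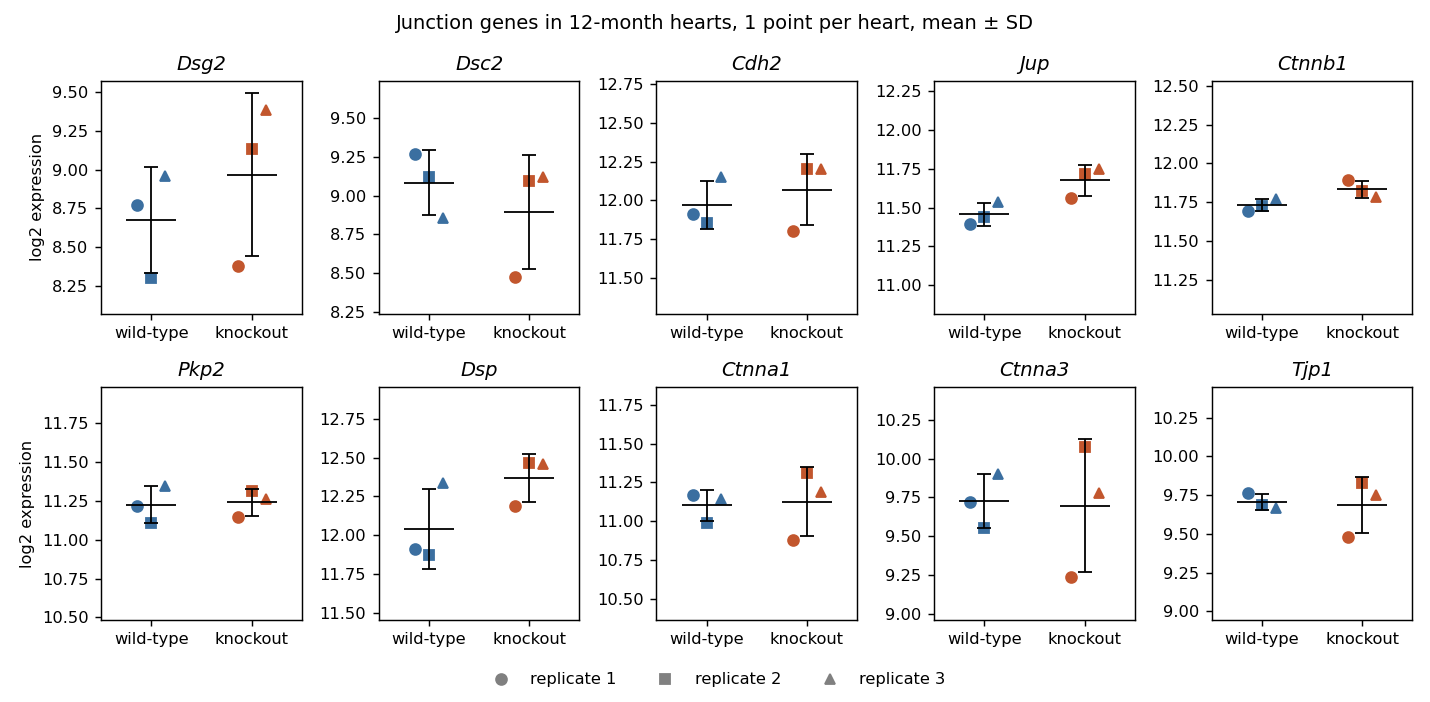
Log2 expression of each junction gene (vertical axis, each panel spanning the same width of log2 units around its own mean) in 3 wild-type (blue) and 3 knockout (orange) hearts, with 1 point per heart, the mark giving the replicate number and the bars giving mean ± SD. The groups separate for Jup and Ctnnb1 and overlap for the other 8 genes, and knockout replicate 1 is the lowest knockout heart for every gene other than Ctnnb1.

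The values carry some limits of the arrays as a whole. Cenpf itself read 8.75, 8.54 and 8.04 in wild-type and 6.35, 6.10 and 6.68 in knockout hearts, a difference of -2.07 ± 0.21 (SE; limma, adjusted p = 0.0286, from 0.00508 to 0.281 over the alternatives). Probes of odorant and vomeronasal receptors, 1210 in all, served as a gauge of background, with 95% of their means under 6.35. All 10 junction genes lay above that level on every array, from 8.30 upward. The 7 markers of ventricular muscle cells lay above it as well. Among all probes above that level, 51.2% had a difference above 0, 8.95% were separated upward and 7.13% downward. The median difference of those probes was 0.0052. Wild-type replicate 3 lay farthest from its group's mean, by 0.19 as the root mean square over 15513 probes above background, and the other arrays by 0.11 to 0.17. By the median root mean square distance to the other arrays, however, wild-type replicate 3 was the nearest of the 6, at 0.257. Wild-type replicates 1 and 2 were at 0.324 and 0.331, and knockout replicates at 0.264 to 0.287. Wild-type replicate 3 was the highest wild-type heart for 7 of the 10 genes.

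The upstream windows shown here are those of Jup and Ctnnb1, whose values separated the groups, and of Dsp, which had the largest difference. Each gives the 250 bases before a RefSeq transcript start (GRCm38.p6), 5′ to 3′ on the gene's strand, with capitals on every match to the motifs searched. The table held windows for 5 of the 10 genes. The Jup window is chr11:100397791-100398040 on the minus strand, that of Ctnnb1, before the first of its 2 listed starts, is chr9:120933150-120933399 on the plus strand, and that of Dsp is chr13:38151044-38151293 on the plus strand.
Jup: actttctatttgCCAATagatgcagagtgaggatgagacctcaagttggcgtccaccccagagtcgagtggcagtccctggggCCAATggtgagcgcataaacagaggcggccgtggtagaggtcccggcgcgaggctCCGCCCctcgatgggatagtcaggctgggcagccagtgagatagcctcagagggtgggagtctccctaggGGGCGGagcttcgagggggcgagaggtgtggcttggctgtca
Ctnnb1: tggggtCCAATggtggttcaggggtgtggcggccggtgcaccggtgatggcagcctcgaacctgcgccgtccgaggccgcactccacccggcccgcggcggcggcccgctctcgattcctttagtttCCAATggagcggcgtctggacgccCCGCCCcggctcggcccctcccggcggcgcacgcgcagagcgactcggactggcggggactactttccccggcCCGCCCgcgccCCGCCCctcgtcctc
Dsp: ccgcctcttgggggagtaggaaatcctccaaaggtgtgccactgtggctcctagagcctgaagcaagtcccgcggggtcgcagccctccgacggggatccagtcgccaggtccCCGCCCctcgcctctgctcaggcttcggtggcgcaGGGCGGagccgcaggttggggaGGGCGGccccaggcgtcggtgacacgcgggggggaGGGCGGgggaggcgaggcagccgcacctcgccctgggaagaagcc

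Both strands were searched for the letters GGGCGG (the GC box), CCAAT (the CCAAT box), TATAAA (the TATA box), TCAAAG (the core of sites for TCF/LEF, the partners of beta-catenin in the nucleus), TGACTCA (the AP-1 site), CACGTG (the canonical E-box) and the MEF2 site. The Jup window held 2 CCAAT matches, beginning 238 and 167 bases before the start, and 2 GC boxes. The Ctnnb1 window also held 2 CCAAT matches, at 244 and 123 bases, with 3 GC boxes. The Dsp window held 4 GC boxes and none of the other letters. Of 32851 windows of the same length, 33.8% held CCAAT and 32.7% held GGGCGG, so both are common. The TCF/LEF core, the AP-1 site, the E-box and the MEF2 site were in none of the 3 windows, and 13.8%, 4.46%, 6.02% and 2.92% of all windows held them. TATAAA, in 12.4% of all windows, was in none of the 3 either. The window before the second listed Ctnnb1 start, which is not shown, held TATAAA 120 bases before that start. The G and C content was 62.0% for Jup, 74.8% for Ctnnb1 and 72.4% for Dsp, above the median of 52.4% over all windows. A match describes letters in a window and no site of binding.

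The armadillo proteins, named for their shared repeats, sit on the cytoplasmic tails of the cadherins. Jup encodes plakoglobin, the member of this family that serves both desmosomes and adherens junctions. It read 11.40, 11.44 and 11.54 in wild-type hearts and 11.56, 11.72 and 11.75 in knockout hearts. Every knockout value lay above every wild-type value, with a gap of 0.026 between wild-type replicate 3 and knockout replicate 1. The difference was 0.22 with a standard error of 0.10, or 1.16-fold with a 95% interval from 0.993 to 1.36-fold (limma, adjusted p = 0.517). Over the alternatives the difference ranged from 0.18 to 0.28, with adjusted p from 0.180 to 0.849.

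Ctnnb1 encodes beta-catenin, which links classical cadherins to the alpha-catenins and also carries Wnt signals to the nucleus. It read 11.69, 11.73 and 11.77 in wild-type hearts and 11.89, 11.82 and 11.78 in knockout hearts. The groups were separated by 0.012, less than the SD within either group, 0.040 and 0.054. The difference was 0.10 ± 0.091 (SE; limma, adjusted p = 0.731). Ctnnb1 had the smallest spread within groups of the 10 genes, and 2.88% of all probes had one as small or smaller. It was the single member whose highest value came from knockout replicate 1.

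Pkp2 encodes plakophilin-2, the plakophilin of heart muscle desmosomes and the gene most often affected in inherited arrhythmogenic cardiomyopathy. It read 11.22, 11.11 and 11.35 in wild-type hearts and 11.15, 11.31 and 11.26 in knockout hearts. The groups overlapped fully. The difference was 0.015, and the 95% interval from 0.856 to 1.19-fold bounds any change of this transcript (limma, adjusted p = 0.976).

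The cadherins span the membrane and bind their counterparts on the next cell. Dsg2, which encodes desmoglein-2, read 8.77, 8.30 and 8.96 in wild-type hearts and 8.38, 9.13 and 9.39 in knockout hearts. Knockout replicates 2 and 3 lay above every wild-type heart, while knockout replicate 1 lay close to the lowest of them. The difference was 0.29 ± 0.27 (SE; limma, adjusted p = 0.738). It was the widest spread of the 10 genes, at the 98.3th percentile of all probes, and the size moved with single arrays. Without knockout replicate 1 the difference was 0.58 (adjusted p = 0.414, within a range from 0.283 to 0.969 over the alternatives). It was 0.079 when knockout replicate 3 was left out and 0.10 when wild-type replicate 2 was.

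Dsc2, which encodes desmocollin-2, the partner of desmoglein-2, read 9.27, 9.12 and 8.86 in wild-type hearts and 8.47, 9.09 and 9.12 in knockout hearts. Knockout replicate 1 was lowest and the other 2 knockout hearts lay among the wild-type values. The difference was -0.19 ± 0.19 (SE; limma, adjusted p = 0.765), and without knockout replicate 1 it was 0.025. Dsc2 was the one cadherin of the 3 with a difference below 0, and its direction therefore rested on 1 heart. The log2 ratio of Dsg2 to Dsc2 within a heart was -0.50, -0.82 and 0.10 in the wild-type and -0.095, 0.043 and 0.27 in knockout hearts, so the groups overlapped through wild-type replicate 3.

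Cdh2, which encodes N-cadherin, the classical cadherin of heart muscle, read 11.91, 11.85 and 12.15 in wild-type hearts and 11.80, 12.20 and 12.20 in knockout hearts. The lowest and the highest values both came from the knockout group. The difference was 0.098 ± 0.14 (SE; limma, adjusted p = 0.840).

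The linkers tie the junction to the filaments inside the cell. Dsp encodes desmoplakin, which connects the desmosomal plaque to desmin. It read 11.91, 11.87 and 12.33 in wild-type hearts and 12.19, 12.46 and 12.46 in knockout hearts. Wild-type replicate 3 stood apart from the other wild-type hearts and above knockout replicate 1, which is the only overlap. The difference was 0.33 with a standard error of 0.15, or 1.26-fold with a 95% interval from 0.992 to 1.59-fold (limma, adjusted p = 0.516). It was 0.48 without wild-type replicate 3 (adjusted p = 0.134, the smallest of the range that reached 0.861 over its alternatives) and 0.25 without wild-type replicate 2.

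Ctnna1 and Ctnna3 encode the alpha-catenins of the heart, of which alpha-T-catenin, from Ctnna3, also binds plakophilin-2. Ctnna1 read 11.17, 10.99 and 11.14 in wild-type hearts and 10.88, 11.31 and 11.19 in knockout hearts. Ctnna3 read 9.72, 9.55 and 9.90 in wild-type hearts and 9.23, 10.08 and 9.78 in knockout hearts. For both genes the knockout hearts held the lowest and the highest value. The differences were 0.025 for Ctnna1 (limma, adjusted p = 0.966) and -0.029 for Ctnna3 (limma, adjusted p = 0.976). Without knockout replicate 1 they were 0.15 and 0.20, and without knockout replicate 2 they were -0.067 and -0.22.

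Tjp1 encodes ZO-1, a scaffold that bridges N-cadherin complexes and the connexin 43 gap junctions beside them. It read 9.77, 9.68 and 9.67 in wild-type hearts and 9.48, 9.83 and 9.75 in knockout hearts. The wild-type values lay between the knockout values. The difference was -0.020 ± 0.12 (SE; limma, adjusted p = 0.971).

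**Figure D2:**
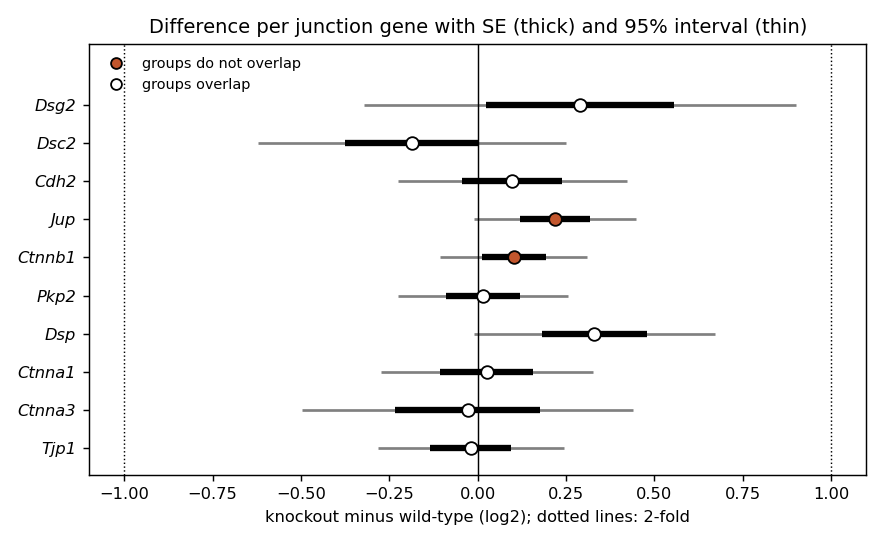
Knockout minus wild-type difference (horizontal axis, log2) of the 10 junction genes with all 6 arrays, with the standard error as a thick and the 95% interval as a thin line. All 10 intervals span 0 and lie inside the dotted lines at 2-fold, and the filled points are Jup and Ctnnb1, whose groups did not overlap.

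The variation among hearts of 1 group was shared between the genes. Knockout replicate 1 was the lowest of the 3 knockout hearts for 9 of the 10 genes, a position it held for 36.9% of all probes, and the lowest of all 6 hearts for 5, against 18.3% of all probes. The range within the knockout group was wider than that within the wild-type group for 8 of the 10 genes, against 47.3% of all probes. The mean log2 level of the 10 genes was 10.68, 10.56 and 10.77 in wild-type hearts and 10.50, 10.90 and 10.87 in knockout hearts. Knockout replicate 1 and wild-type replicate 2 were thus lowest, and knockout replicates 2 and 3 highest.

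Fibroblast markers ran in nearly the opposite order. The mean log2 level of 6 fibroblast markers was 10.43, 10.58 and 10.06 in wild-type hearts and 10.55, 9.96 and 10.07 in knockout hearts, highest in wild-type replicate 2 and knockout replicate 1, where the junction genes were lowest. All 6, Dcn, Lum, Pdgfra, Col1a1, Col1a2 and Tcf21, lay above background. Each had a difference below 0, while 51.2% of probes above background had one above 0. These differences ran from -0.43 to -0.00047 with a median of -0.15 (limma, smallest adjusted p = 0.663), and no marker of the 6 separated the groups. The mean of the 7 ventricular muscle markers was 13.49, 13.45 and 13.53 in wild-type hearts and 13.43, 13.61 and 13.52 in knockout hearts. Knockout replicate 1 was the lowest knockout heart for 3 of these 7 markers, Myh6, Myl2 and Ryr2. Its place as the lowest of all 6 hearts rested on Ryr2, the calcium release channel, at 12.07 there against 12.81 and 12.59. Without Ryr2, a value computed after this was seen, knockout replicate 1 averaged 13.66, above wild-type replicates 1 and 2 at 13.65 and 13.64. It was still the lowest knockout heart, with knockout replicates 2 and 3 at 13.74 and 13.68. The 5 macrophage markers averaged 9.05, 9.28 and 9.47 in wild-type hearts and 9.61, 8.83 and 9.01 in knockout hearts, highest in knockout replicate 1 but in the middle in wild-type replicate 2. Cd14, 1 of the 5, read 8.13, 8.11 and 8.14 in wild-type hearts and 7.51, 7.30 and 7.19 in knockout hearts. It differed by -0.79 with the groups separated downward (limma, adjusted p = 0.110), against 7.47% of all probes so separated. Of the 5 markers, 2 differed above 0 and 3 below.

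Between the groups the ranges of the fibroblast, ventricular and macrophage means overlapped. So did those of the smooth muscle and pericyte, mesothelial and epicardial, and epithelial marker lists. Those of the atrial, adipocyte, erythroid and endothelial lists did not. The mean of 5 atrial muscle markers ranged from 7.90 to 8.32 in wild-type and from 8.33 to 8.62 in knockout hearts, with Sln and Bmp10 below background. That of 4 adipocyte markers ranged from 7.78 to 8.20 in wild-type and from 7.62 to 7.77 in knockout hearts, with Adipoq and Lep below background. The single erythroid marker, Alas2, differed by 0.88 without overlap (limma, adjusted p = 0.368). The mean of 6 endothelial markers ranged from 10.52 to 10.58 in wild-type and from 10.59 to 10.68 in knockout hearts, a narrow gap over genes that went both ways. Kdr, a receptor for VEGF, differed by 0.43 and was the 1 of the 6 that separated, while Emcn, the endomucin gene, differed by -0.27 (limma, adjusted p = 0.391 and 0.514). Cdh5, the cadherin of endothelial adherens junctions, differed by 0.23 with overlapping groups (limma, adjusted p = 0.542). Acta2, the smooth muscle actin gene, differed by -1.28 (limma, adjusted p = 0.455), with wild-type replicate 3 at 11.07 among the knockout values and the other wild-type hearts at 12.96 and 12.76. It was 1 of 6 smooth muscle and pericyte markers, of which 3 differed above 0 and 3 below, with a median of -0.0063. Myh11, the smooth muscle myosin gene, differed by 0.32 with the groups separated upward (limma, adjusted p = 0.455). The part of these cells in the junction gene values was not tested. In whole hearts, fewer cells of a type and less RNA per cell cannot be told apart.

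**Figure D3:**
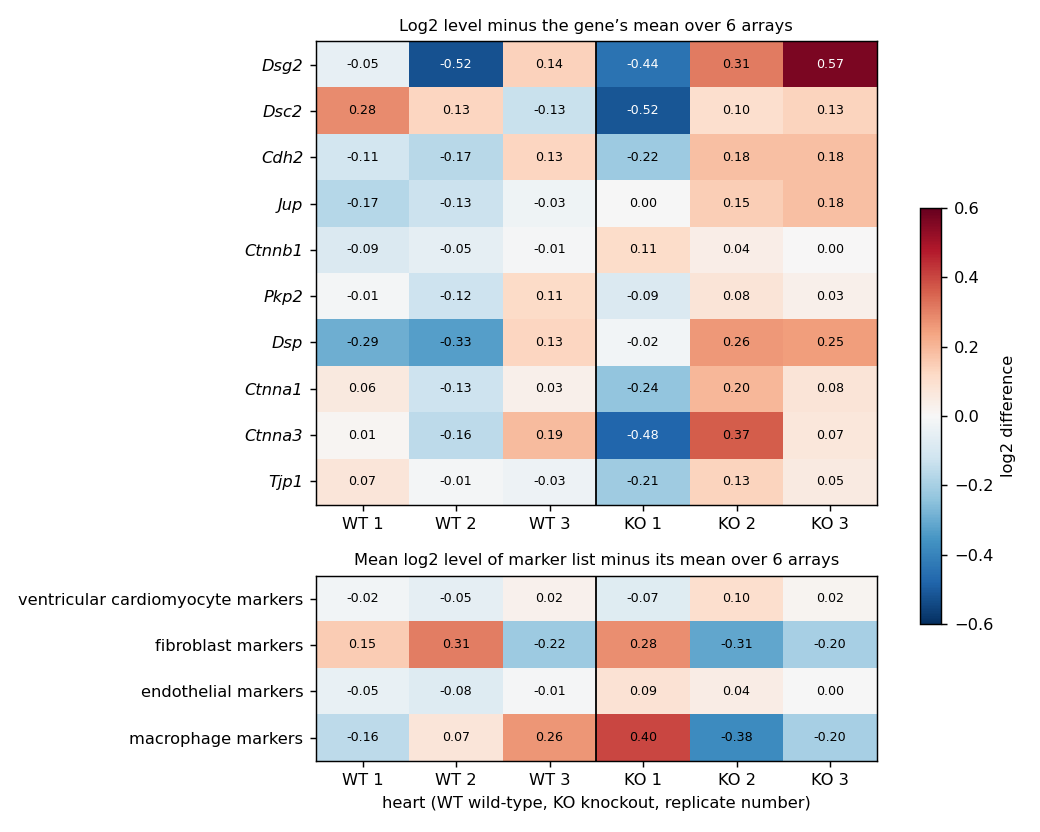
Log2 level of each junction gene minus its mean over the 6 arrays (upper block) and the mean of 4 marker lists treated the same way (lower block), with 1 column per heart and a colour scale from -0.6 to 0.6. Knockout replicate 1 is below 0 for every gene other than Ctnnb1 (Jup, at -0.0025, is drawn as 0.00), and fibroblast markers are at 0.28 there and at 0.31 in wild-type replicate 2.

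**Figure D4:**
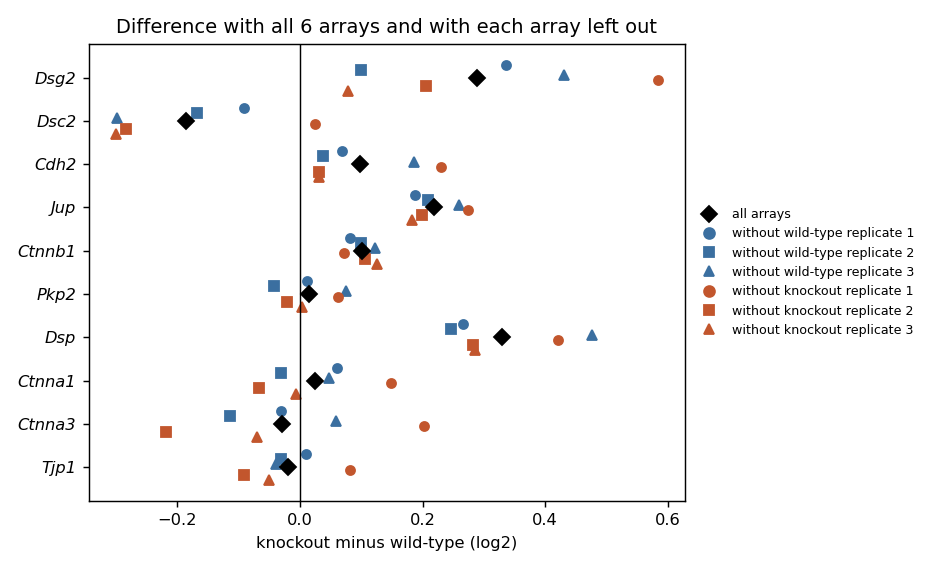
Knockout minus wild-type difference (horizontal axis, log2) of each gene with all arrays (black) and with 1 wild-type (blue) or 1 knockout (orange) array left out. Dsp, Jup, Dsg2, Cdh2 and Ctnnb1 stay above 0 throughout, while the other 5 genes change sign at least once.

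Leaving out each array in turn kept the differences of Dsp, Jup, Dsg2, Cdh2 and Ctnnb1 above 0. Those of Pkp2, Dsc2, Ctnna1, Ctnna3 and Tjp1 changed sign without at least 1 array, as the plot of differences with each array left out shows. The median difference of the 10 genes was 0.18 with knockout replicate 1 left out and 0.0039 with wild-type replicate 2 left out.

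Other genes of the same structures were read from lists of desmosome, adherens junction, tight junction and disc genes, and 0 of them passed (adjusted p under 0.05), with values at unadjusted p given here. Among 13 other desmosome genes 8 lay above background, and Dsc3, Dsg3, Dsg4, Dsg1b and Dsg1c, desmosomal cadherins of skin, lay below it. In the RefSeq gene table Dsc2 lies between Dsc3 and Dsc1, and Dsg2 lies next to Dsg3. Of the list, 1 had an unadjusted p under 0.05, against 9.90% of all probes. It was Ppl, which encodes periplakin, with a difference of 0.35 (limma, adjusted p = 0.452). Ppl read 7.38, 7.55 and 7.69 in the wild-type and 7.97, 7.94 and 7.76 in knockout hearts. The groups also did not overlap for Pkp4, a plakophilin relative found at cell contacts, with a difference of 0.20 (limma, adjusted p = 0.530). That made 2 of 13 separated upward, against 7.33% of all probes. The median difference of the list was 0.012.

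Among 17 other adherens junction genes the median difference was 0.040, and 2 had an unadjusted p under 0.05 (9.90% of all probes). Cttn, which encodes the actin-binding protein cortactin, differed by 0.30 (limma, adjusted p = 0.457). Plekha7, which encodes a partner of p120-catenin, differed by -0.31 (limma, adjusted p = 0.433), with a knockout mean close to background. Of these 17 genes, 2 were separated upward and 1 downward, against 7.33% and 7.47% of all probes. Among 12 tight junction genes and ZO partners the median was 0.0011. Of these 12, 3 were separated upward and 1 downward, against the same shares, and 1 had an unadjusted p under 0.05. Cldn5, the claudin of endothelial cells, read 8.62, 8.92 and 9.31 in the wild-type and 9.62, 9.57 and 9.54 in knockout hearts, a difference of 0.62 (limma, adjusted p = 0.379). Cgn, which encodes cingulin, differed by -0.25 (limma, adjusted p = 0.514).

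The 22 other genes of the intercalated disc had a median difference of 0.13, with 19 above 0 (47.9% of all probes), 4 separated upward (7.33% of all probes) and 5 at an unadjusted p under 0.05 (9.90% of all probes). All 22 lay above background, and among probes above it 51.2% had a difference above 0 and 8.95% were separated upward. Popdc3, which encodes a membrane protein that binds cyclic AMP, read 8.94, 9.21 and 9.32 in the wild-type and 9.57, 9.79 and 9.88 in knockout hearts. Its difference was 0.59 ± 0.13 (SE; limma, adjusted p = 0.368). Synm, which encodes the intermediate filament protein synemin, differed by 0.35 (limma, adjusted p = 0.404). Knockout replicate 1 was the lowest knockout heart for 19 of these 22 genes too.

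Beta-catenin and junctional tension also act on transcription, so genes of the Wnt and Hippo pathways were read in the same way. Of 15 Wnt and beta-catenin pathway genes 0 had an unadjusted p under 0.05, against 9.90% of all probes, and their median difference was 0.0031. Of the 15, 8 differed above 0 and 7 below, against 47.9% of all probes above 0. The groups were separated upward for 3 (7.33% of all probes) and downward for 0 (7.47% of all probes). Ccnd1, the cyclin D1 gene, differed by 0.45 (limma, adjusted p = 0.514) and Axin1, part of the complex that degrades beta-catenin, by 0.22 (limma, adjusted p = 0.516). Axin2, a target gene of the pathway, differed by -0.11 (limma, adjusted p = 0.818) and was added after its value was seen. The Hippo pathway passes signals from cell contacts to the cofactor Yap1, and the list of 12 genes also held Yap1 and targets such as Ccn1. Of the 12, 11 had a difference above 0 and 3 were separated upward, against the same 47.9% and 7.33% of all probes. An unadjusted p under 0.05 was found for 4 of them (Ccn1, Ccn2, Amotl2 and Yap1), against 9.90% of all probes. Their median difference was 0.20. All 12 lay above background, and among probes above it 51.2% had a difference above 0 and 8.95% were separated upward. Ccn1, a target of Yap1 and an immediate early gene, read 10.01, 9.98 and 10.16 in the wild-type and 10.51, 10.72 and 10.57 in knockout hearts, a difference of 0.55 (limma, adjusted p = 0.256). Amotl2, which encodes a junctional partner of Yap1, differed by 0.37 (limma, adjusted p = 0.391).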

How the data were processed

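The authors deposited log2 expression values per probe set, 1 column per heart. RMA and Partek 6.6 are named per the submitters' processing notes. Their settings, and the build behind the probes, are not stated in the labels used. Array medians lay between 6.92 and 6.97, so the log2 values were used as deposited. RMA makes arrays alike in distribution, so a change shared by most genes would not be seen.

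Of 35556 probes, 21789 had exactly 1 gene symbol in the array's annotation table, 1621 had several and 12146 were unnamed. The 2 groups were fitted with limma (version 3.58.1, R 4.3.3; lmFit, eBayes, two-sided), adjusted over the 21789 probes. The method was tested on simulated data with independent noise for each probe, so variation shared between genes was not covered by that test. The number of arrays limits the precision.

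The 10 genes and all lists were chosen with earlier results of these data known. Besides the 10 genes and Cenpf, the text names the 2 genes of smallest p above background in each pathway list. Axin2 and the marker genes given with values were chosen after their values were seen. Alternatives covered normalization, dim probes, tested family, gene summary, variance model, array weights, a block for replicate number, and leaving out each array. Figures were drawn with matplotlib 3.10.9.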

Additional observations from a re-analysis of the deposited data

How the results depend on the processing

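None of the 10 junction genes passed under any of the 15 alternatives, with adjusted p of 0.134 or more. Of 150 member results, 13 changed sign. With array medians subtracted Tjp1 was at 0.0021, and with array weights Tjp1 was at 0.016 and Ctnna3 at 0.10. Leaving out 1 array moved Tjp1 from -0.091 to 0.082, Pkp2 from -0.043 to 0.076, Ctnna1 from -0.067 to 0.15, Ctnna3 from -0.22 to 0.20 and Dsc2 from -0.30 to 0.025. The count of probes called, 6 in the reported fit, was 1 when probes with no or several symbols were tested too, 22 with the trend and robust variance model, 33 with array weights and 2157 at unadjusted p under 0.05. It ranged from 1 to 293 with 1 array left out, 293 being without wild-type replicate 3. With the replicate number as a block it was 11, and no call of a junction gene changed. Deviations of same-numbered hearts from their group means correlated at -0.19, -0.25 and -0.0094. Those of other pairs of a wild-type and a knockout heart ran from -0.062 to 0.23. Deviations from a mean of 3 hearts depend on each other, so these values cannot decide whether the numbers pair the hearts. Cenpf stayed at -2.07 in that wider test but no longer passed (adjusted p = 0.281), and ranged from -2.27 to -1.92 with 1 array left out, passing without wild-type replicate 3 alone. The cause of these changes was not tested. With 3 hearts a group, no junction gene's difference passed the adjusted threshold.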
